A study of Mus musculus with 20 samples.

Results

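Porphyran is the sulfated galactan of the red alga nori, and the data described here compare the ileum of mice that ate it in a high fat diet with the ileum of mice on the same diet without it. The arrays were chosen by their titles, and they are 2 of the 20 arrays of a study of 5 tissues and 4 diets. The mice were male C57BL/6J, were 5 weeks old at the start and spent 13 weeks on their diet. The HFD+PP diet had 60% of its energy as fat plus porphyran at 2% of its weight, and the HFD diet had the same 60% without it. Values from 2 more ileum arrays are set beside these as context: HFD+Ex, the 60% fat diet with a nori extract at 2% of its weight, and CD, a diet with 10% of energy as fat. Both diets compared here are high in fat, so every difference below is one within fat-fed mice.

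Each array held RNA pooled from the tissue of 7 mice, so each diet is 1 array and there is no replicate. No test could be run, no p-value is given, and neither the spread between mice nor the weight of a single mouse in its pool can be seen. The labels do not say which stretch of the ileum was taken, nor how it was freed of adjoining fat. In whole tissue, fewer cells of a type and less RNA per cell cannot be told apart. A level below is the log2 of the background-subtracted signal minus the 75th percentile of that array, so 0 is the brightness that 25% of the spots exceed. A difference is the HFD+PP level minus the HFD level, and it counts as higher or lower here when it reaches 2-fold, a log2 value of 1. Where a gene was not well above background on 1 array, the higher of its reading and that array's detection floor was used. The difference is then a bound, written "at least".

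The arrays read as ileum. Of the 11 markers of ileal enterocytes, all were measured and 1, Fgf15, was at least 2-fold different, with a median difference of −0.23. Fabp6, the ileal bile acid binding protein, read 9.56 on the HFD+PP array and 9.66 on the HFD array. Vil1, the villin of the brush border, read 7.48 with porphyran and 7.88 without. Of 19 genes of the colon list on the array 13 were measured, with 10 above 0, a median of 0.33, and Retnlb and Mptx1 at least 2-fold higher with porphyran. Car4 read 4.86 on the HFD+PP array and 4.42 on the HFD array, and Hoxb13 and Hoxd13 were not well above background on either. The CD array stood apart in liver transcripts: Alb, the albumin gene, read −6.96 on HFD+PP, −6.03 on HFD+Ex and −5.91 on HFD, against 1.12 on CD. Mup20 and Ahsg read −7.24 and −6.42 on HFD+PP, against 0.70 and 0.21 on CD. The CD readings of genes that liver also makes, such as Fabp1 and the cytochromes, stand beside this, and its part in them was not tested. The comparison of HFD+PP with HFD does not use the CD array. The share of spots well above background was 57.3% on the HFD+PP array, 63.0% on HFD+Ex, 60.7% on HFD and 64.6% on CD, and all 4 shared 1 slide. Among bright probes printed 10 times on an array, the spread between spots gave a difference a technical SD of 0.0735 on the HFD+PP array and 0.0815 on the HFD array. For probes more than 3 log2 units under the 75th percentile it was 0.318 and 0.251, so dim genes are read less precisely.

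The ileal epithelium takes up fat, sugars and bile acids, and it also breaks down foreign compounds. The nuclear receptors PXR (Nr1i2) and CAR (Nr1i3) bind foreign chemicals and some bile acids and switch on cytochrome P450 enzymes of the Cyp3a, Cyp2c and Cyp2b families, while the aryl hydrocarbon receptor switches on Cyp1a1. PPAR-alpha and CREB3L3 drive genes of fat handling in the enterocyte. Bile acids taken up by Slc10a2 activate FXR (Nr1h4), which induces Fgf15, a hormone that restrains bile acid synthesis in the liver. The epithelium also answers microbes with antimicrobial lectins, serum amyloids and the goblet cell protein RELM-beta (Retnlb).

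Of 15981 measured genes, 312 were at least 2-fold higher with porphyran, 1.95% of all, and 152 were at least 2-fold lower, 0.951% of all. The median over all measured genes was −0.01. The lower side was the brighter one: 55 of the 152 lower genes, 36.2%, were above the 75th percentile on an array, against 30 of the 312 higher genes, 9.62%. The detection floor was −4.97 on the HFD+PP array and −5.48 on HFD, so a bound could reach 2-fold more easily on the higher side. Of the higher genes 170 were bounds, and of the lower genes 38 were. Higher genes therefore made up 67.2% of those counted, a share that came to 49.3% with another background correction (normexp), 55.5% among genes well above background on both arrays, 56.1% with no filter, 54.5% at 1.5-fold, 76.4% at 3-fold, 72.5% with the authors' values, 70.6% with scaling to bright probes and 35.3% among genes above the 75th percentile, a group added after the data were seen.

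**Figure D1:**
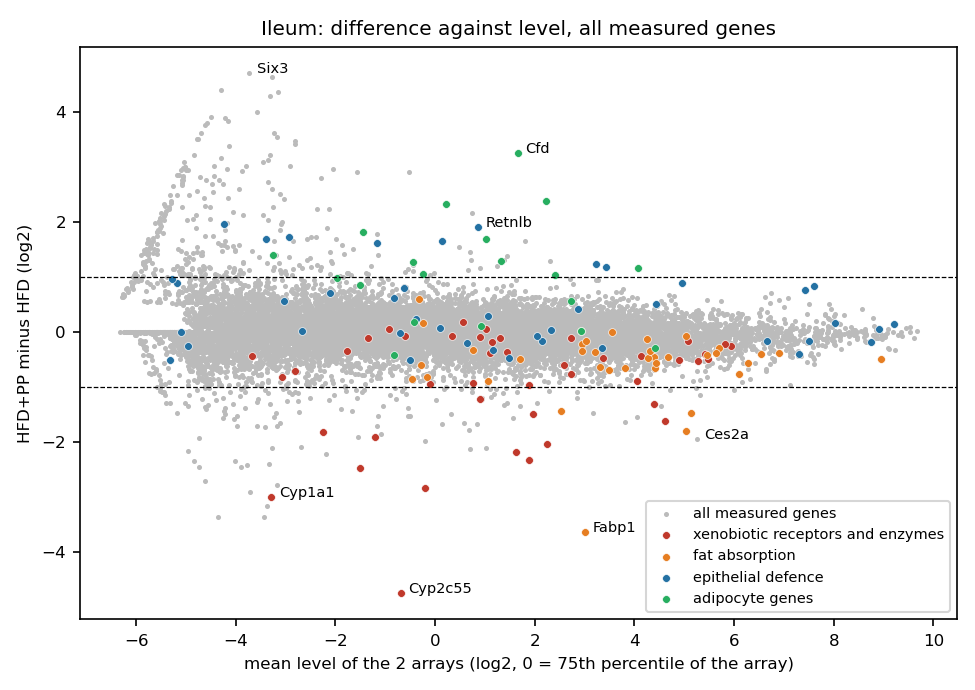
Difference between diets (HFD+PP minus HFD, log2, vertical axis) against the mean level of the 2 ileum arrays (log2, horizontal axis) for the 15981 measured genes, with members of 4 gene lists in colour and dashed lines at 2-fold. Cyp2c55 at −4.74 and Fabp1 at −3.63 lie lowest, the points far above the upper line are mostly at low levels, and Cfd at 3.25 stands apart among the brighter ones.

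Cytochromes of drug metabolism made up most of the largest falls with porphyran. Of the 45 measured members of a list of xenobiotic receptors and the enzymes they induce, 13 fell at least 2-fold, against 0.951% of all measured genes, and none rose. The median over the list was −0.50. Like the other lists, this one was chosen with earlier results of these data known, so the count is not independent support. Of the 15 lowest genes measured on both arrays 10 were cytochromes, 6 of them Cyp3a and 3 Cyp2c genes. Of all 67 measured Cyp genes, counted after their values were seen, 16 were at least 2-fold lower and 3 higher. The 3 were Cyp2d34, Cyp2ab1 and Cyp2e1, an ethanol-oxidising cytochrome that read −0.69 with porphyran, against −1.89 on HFD, a rise of 1.20 that was 0.92 with normexp. The HFD array was the highest of the 4 ileum arrays for 14 of these 15, an order that choosing genes low against HFD partly fixes.

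The 300 bases around the start of transcription are shown for 3 genes that carry the loss, Cyp2c55, Cyp3a11 and Fabp1. They are from RefSeq, assembly GRCm38.p6, 5′ to 3′ on the strand of the gene. Capitals mark the nuclear receptor half-sites AGGTCA and AGTTCA, in either orientation, and the HNF4 element CAAAGTCCA. Cyp2c55 lies at chr19:39006769-39007068 on the plus strand, Cyp3a11 at chr5:145879805-145880104 on the minus strand and Fabp1 at chr6:71199629-71199928 on the plus strand.
Cyp2c55: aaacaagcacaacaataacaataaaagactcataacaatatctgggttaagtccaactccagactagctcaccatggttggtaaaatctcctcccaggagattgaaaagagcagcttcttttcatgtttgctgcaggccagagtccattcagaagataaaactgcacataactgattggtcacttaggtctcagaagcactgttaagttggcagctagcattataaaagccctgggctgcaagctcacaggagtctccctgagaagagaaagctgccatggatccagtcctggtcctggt
Cyp3a11: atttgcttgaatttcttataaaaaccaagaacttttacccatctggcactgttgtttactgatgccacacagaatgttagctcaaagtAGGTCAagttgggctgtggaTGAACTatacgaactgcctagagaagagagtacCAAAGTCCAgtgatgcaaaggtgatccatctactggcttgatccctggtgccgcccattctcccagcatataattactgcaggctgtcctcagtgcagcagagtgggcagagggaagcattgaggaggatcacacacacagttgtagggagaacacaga
Fabp1: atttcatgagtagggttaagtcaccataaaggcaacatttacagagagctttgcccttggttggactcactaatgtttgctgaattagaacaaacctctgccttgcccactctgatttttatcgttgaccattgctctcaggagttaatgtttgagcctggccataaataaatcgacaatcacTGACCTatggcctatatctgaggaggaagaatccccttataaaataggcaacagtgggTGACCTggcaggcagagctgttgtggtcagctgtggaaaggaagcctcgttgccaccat
The Cyp3a11 window held AGGTCA 162 bases before the start, AGTTCA on the opposite strand at 142 bases and CAAAGTCCA at 109 bases. The Fabp1 window held AGGTCA on the opposite strand at 67 and at 9 bases before the start, and the Cyp2c55 window held none of the 3 motifs. Searched on both strands, AGGTCA was in 4 of the 13 fallen genes of the xenobiotic list, against 16.3% of 32851 promoters, and AGTTCA was in 2, against 14%. CAAAGTCCA, which holds neither of these 2 strings, was in Cyp2c65, Cyp3a11 and Cyp3a16, 3 of the 13, against 0.475% of promoters. The fallen genes include close copies from the Cyp3a and Cyp2c clusters, so their matches are not independent. A gene counted when any of its promoters matched, while each share is over promoters. These are letter matches, and binding was not measured.

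Cyp2c55, an inducible cytochrome of the gut and liver that oxidises arachidonic acid, read −3.05 on the HFD+PP array, against 1.69 on the HFD array. That is a difference of −4.74, or 26.7-fold lower, the largest fall measured on both arrays. It read −0.30 on the HFD+Ex array and −1.50 on the CD array, so the porphyran pool lay under all 3 others. Cyp2c66 read 0.72 with porphyran, against 3.04 without, and Cyp2c65 read 0.52, against 2.71. Both were close to their CD readings of 0.70 and 0.34, while the HFD+Ex array read 2.07 and 1.76. Cyp2c29 was lower by a smaller step, −1.22. Over the whole Cyp2c family, counted after its values were seen, 7 of 12 measured genes were at least 2-fold lower and none was higher. Of all measured genes 0.951% were lower.

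In the Cyp3a family, whose main member Cyp3a11 is the mouse counterpart of the human enzyme that clears many drugs, 7 of 8 measured genes were at least 2-fold lower. The family was also counted after its values were seen, and 0.951% of all measured genes were lower. Cyp3a25 read 1.23 on the HFD+PP array, against 3.26 on the HFD array, a 4.07-fold fall, with 2.42 on HFD+Ex and 1.42 on CD. Cyp3a44 read −1.62, against 1.20, and its HFD+Ex and CD readings were −1.70 and −0.24. Cyp3a11 read −2.15, against −0.25, and its 2 probes gave −2.30 and −1.90. Cyp3a57 fell by 2.11, Cyp3a59 by 2.12, Cyp3a16 by 2.47 and Cyp3a41b by 2.78 on the log2 scale. Genes of the Cyp3a and Cyp2c clusters are close copies whose RNA can bind each other's probes, so these are not independent readings and their order is uncertain.

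Other inducible genes moved the same way. Cyp2b10, the usual marker of CAR activity in mouse liver, read −3.15, against −1.33, a 3.53-fold fall. Abcb1a, the drug efflux pump P-glycoprotein of the intestine, is one of the brighter genes of the set, with 3.80 on the HFD+PP array, against 5.42 on the HFD array. Its CD reading was 3.71 and its HFD+Ex reading 5.00. The paralog Abcb1b fell by 1.48. Fmo5, a flavin monooxygenase, read 3.75 with porphyran and 5.06 without. Ces2a, a carboxylesterase that cleaves ester drugs and acylglycerols, read 4.28, against 6.22, a 3.84-fold fall, and was the only one of 11 measured carboxylesterases past 2-fold.

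Cyp1a1, the classical target of the aryl hydrocarbon receptor, had another pattern over the arrays. It read −4.78 with porphyran, against −1.79 on HFD, and the HFD+Ex array at −4.93 and the CD array at −4.99 read alike, so the HFD pool was the single high one. The receptors themselves were not past 2-fold. Nr1i2 differed by −0.46, with 3.14 on the HFD+PP array and 3.61 on the HFD array, Nr1i3 by −0.10 and Ahr by −0.08. Por, the reductase that supplies cytochromes with electrons, differed by −0.88. No member of the list of glutathione transferases and NRF2 targets was past 2-fold, 0 of 37, with a median of −0.17.

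Some genes of a list typical of the upper small intestine also fell. Of 15 measured members 6 were at least 2-fold lower, against 0.951% of all measured genes, and none was higher. The median was −0.61, with 13 members below 0 and 2 above, Slc40a1 at 0.27 and Cybrd1 at 0.12. Gstm3 and Onecut2 differed by −0.08 and −0.15. Fabp1, the liver-type fatty acid binding protein that carries fatty acids inside the enterocyte, read 1.20 on the HFD+PP array, against 4.83 on the HFD array, a 12.4-fold fall. The HFD+Ex and CD arrays both read 1.76, so HFD alone was high. Slc2a2, the glucose transporter GLUT2, read −1.20, against 0.78, with 0.82 on HFD+Ex and −1.50 on CD. Apoa4, an apolipoprotein of chylomicrons, read 1.82, against 3.25, Lct, the lactase of the brush border, −1.71, against −0.37, and Rbp2, which binds retinol in enterocytes, 0.33, against 1.54. The sixth, Cyp2b10, is also in the xenobiotic list. Gata4, the transcription factor of the upper gut, was dim on both arrays and differed by −0.61.

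Across fat absorption and chylomicron assembly the differences were small for most genes but leaned to one side. Of 37 measured members 34 were below 0 and 4 were at least 2-fold lower, with a median of −0.46. Over all measured genes 8186 of 15981 were below 0 and 0.951% were at least 2-fold lower. The 4 were Fabp1, Apoa4, Abcg5, which pumps plant sterols and cholesterol back into the lumen, and Creb3l3. Abcg5 read 4.14 on the HFD+PP array, against 5.94 on the HFD array, and its partner Abcg8 differed by −0.85. Creb3l3, a membrane-bound transcription factor of fat-handling genes, read 4.40, against 5.87, with 5.32 on HFD+Ex and 4.07 on CD. Not past 2-fold were Apob, the scaffold of the chylomicron, at −0.76, Mttp, which loads it with lipid, at −0.65, Fabp2 at −0.49, and the fatty acid transporter Cd36 at 0.60.

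Fatty acid oxidation leaned the same way. Of 44 measured members of the list of oxidation, ketogenesis and PPAR-alpha targets 40 were below 0 and 4 were at least 2-fold lower, Creb3l3, Retsat, Ppara and Acot4, with a median of −0.55. Over all measured genes 0.951% were at least 2-fold lower. Ppara itself, the receptor that senses fatty acids, read 2.31 with porphyran, against 3.40 without. Its 3 probes ran from −1.08 to −0.54, so the call rests on the brightest of them, and Acot4 differed by −0.89 with normexp. Cpt1a, the gate of fatty acid entry into mitochondria, differed by −0.61 and Pdk4 by −0.55. The 36 subunits of the respiratory chain had no member past 2-fold and a median of −0.09.

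**Figure D2:**
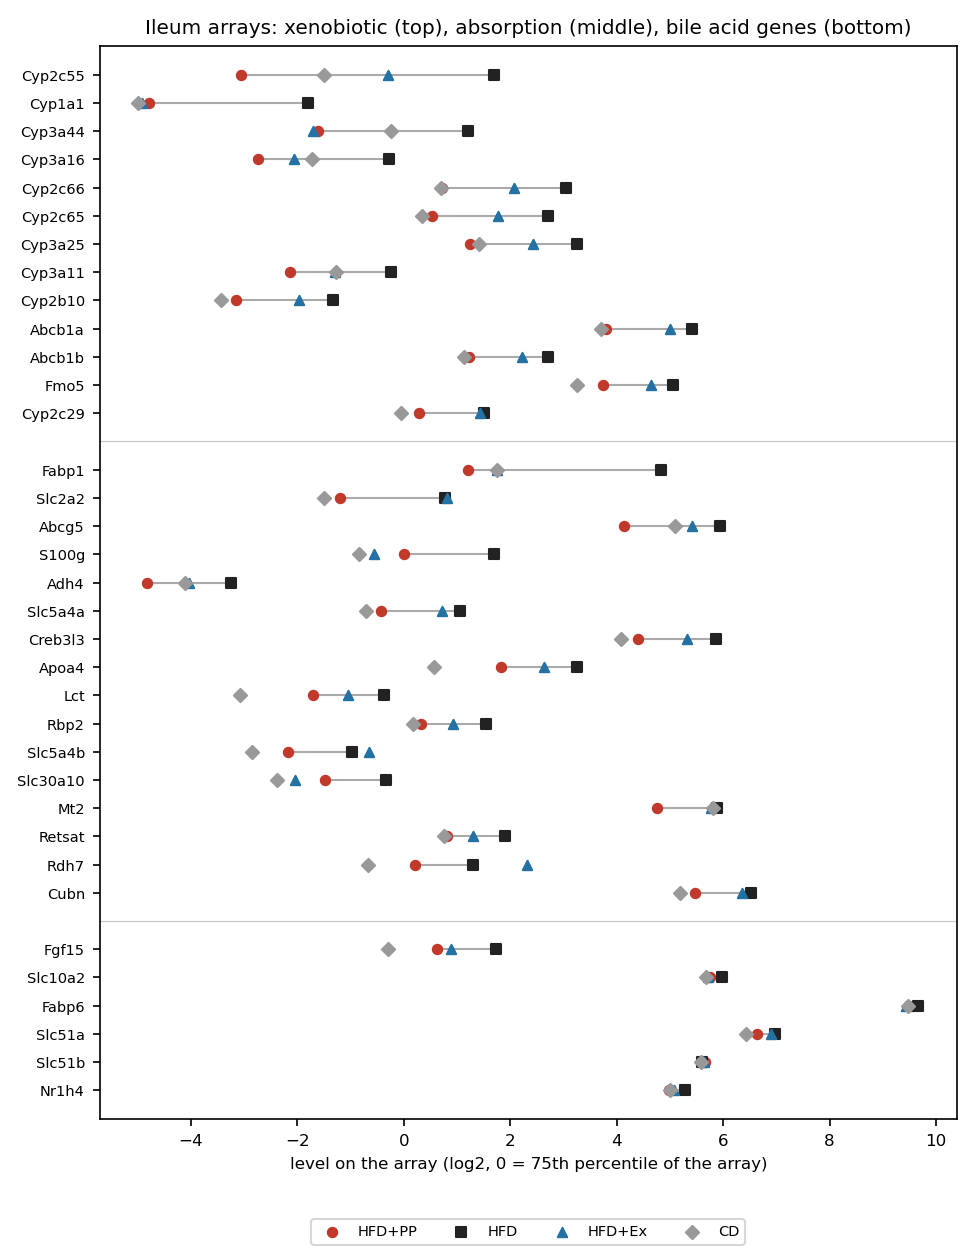
Levels on the 4 ileum arrays (log2, horizontal axis, 0 is the 75th percentile of the array) for xenobiotic genes in the top block, absorption genes in the middle and bile acid genes at the bottom, with a grey line joining HFD+PP (red circle) to HFD (black square). Cyp2c55 shows the longest line, which joins −3.05 with porphyran and 1.69 on HFD, and Fabp6, Slc10a2 and Slc51b have almost none.

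Nutrient transporters and enzymes of the brush border also had members past 2-fold. The share at least 2-fold lower over all measured genes was 0.951%. Among 26 sugar, amino acid and peptide transporters 3 fell, with a median of −0.32: Slc2a2, Slc5a4a and Slc5a4b, the last pair being mouse relatives of the sodium-glucose transporter family. Slc5a4a read −0.42, against 1.06, and Slc5a4b fell by 1.20, a fall of 0.86 with the normexp correction. Of 28 brush border hydrolases and peptidases, Lct and Cubn, the cobalamin receptor cubilin, were at least 2-fold lower, 27 of the 28 were below 0 and the median was −0.46. With quantile normalization Cubn differed by −0.96. Among 31 ion and water transport genes, Aqp3, a water and glycerol channel, read −1.91, against −0.38, and Best2, a chloride channel, was at least 2.46-fold lower as a bound but differed by −0.33 with normexp.

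Mineral and retinoid genes had 4 falls each, beside a share of 0.951% lower over all measured genes. S100g, the calcium binding protein calbindin-D9k that vitamin D induces, read 0.01 on the HFD+PP array, against 1.68 on the HFD array, a 3.19-fold fall, with −0.56 on HFD+Ex and −0.85 on CD. Mt2, a metallothionein that binds zinc, read 4.76 with porphyran, while HFD at 5.89, HFD+Ex at 5.77 and CD at 5.82 lay within a narrow band. Slc30a10, a manganese exporter, fell by 1.15, and Cubn completes the 4 of 23 measured mineral and vitamin D genes. Of 29 retinoid genes, Adh4, Rbp2, Retsat and Rdh7 were lower, and Stra6, a receptor for retinol binding protein, was higher, at −1.35 on the HFD+PP array, against −2.36 on the HFD array. Isx, the intestinal repressor of vitamin A uptake, differed by −0.19. With normexp Adh4 differed by −0.42, Slc30a10 by −0.89 and Stra6 by 0.69, all under 2-fold.

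In the bile acid circuit the main transporters were under 2-fold and the hormone Fgf15 was past it. Slc10a2, the transporter that takes bile acids up from the lumen, read 5.75 on the HFD+PP array, against 5.98 on the HFD array. Fabp6 differed by −0.10, and the exporter subunits Slc51a and Slc51b by −0.35 and 0.04. Nr1h4, the receptor FXR, read 4.98 with porphyran and 5.28 without. Fgf15 read 0.62, against 1.73, a 2.16-fold fall, with 0.89 on HFD+Ex and −0.29 on CD. Abcc2, an exporter of conjugated compounds on the luminal face, read 0.72, against 2.04, and with Abcg5 and Fgf15 made 3 of 18 measured members lower, with a median of −0.41. Of all measured genes 0.951% were at least 2-fold lower. Gpbar1, the membrane receptor for bile acids, read −1.83 on both arrays, and Abcc3 differed by 0.25. Nr0b2, another FXR target, was not well above background on either array.

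Sphingolipid genes had no member past 2-fold in either direction. Among 14 genes of ceramide synthesis the median was −0.12, with −0.01 for Sptlc1 and 0.06 for Sptlc2, which form the first enzyme of the pathway. The ceramide synthases differed by −0.35 for Cers2, 0.19 for Cers4, 0.07 for Cers5 and −0.38 for Cers6. The desaturases differed by 0.34 for Degs1 and −0.40 for Degs2. Among 24 genes of sphingomyelin and ceramide turnover the median was −0.08. Smpd3, the neutral sphingomyelinase, differed by 0.02, Asah2, the neutral ceramidase of the brush border, by −0.13, Sgms1 by −0.05 and Ugcg by −0.04. The list ran from the ceramidase Acer1 at −0.79 and the sphingomyelin synthase Sgms2 at −0.70 to the ceramidase Acer3 at 0.42. A 2-fold limit on 1 array per diet does not show that these genes were alike between the diets.

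Some genes of a list of defence against microbes were higher with porphyran. Of 42 measured members 8 rose at least 2-fold, against 1.95% of all measured genes, and none fell. The median over the list was 0.21, with 27 members above 0 and 14 below. Those below included Sprr1a at −0.50, Reg4 at −0.47 and Ccl25 at −0.39. Retnlb, the goblet cell protein RELM-beta that bacteria and helminths induce, read 1.82 on the HFD+PP array, against −0.09 on the HFD array, a 3.75-fold rise. It read 2.92 on CD and −2.07 on HFD+Ex, so the nori extract pool lay on the other side of HFD. Fut2, the fucosyltransferase that decorates epithelial glycans used by microbes, read −0.36, against −1.98, with 0.12 on CD and −2.68 on HFD+Ex. Duoxa2, the maturation factor of the epithelial oxidase DUOX2, read 4.03, against 2.83, and its CD and HFD+Ex readings were 4.14 and 2.23.

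Saa3, a serum amyloid, read 0.97 with porphyran, against −0.68 without, and Mptx1, a pentraxin of the mucosa, 3.85, against 2.62. Its relatives Saa1 and Saa2, both bright, differed by 0.84 and 0.77 and were not past 2-fold, nor was Nos2, the inducible nitric oxide synthase, at 0.89. S100a8 and S100a9, the subunits of calprotectin, rose by 1.96 and 1.74, and the neutrophil chemokine Cxcl5 rose by 1.70. S100a8 and S100a9 are also in the granulocyte list, so the count of 8 is not one of epithelial genes alone. All 3 are dim, and with normexp S100a8 differed by 0.51 and Cxcl5 by 0.64. The bactericidal lectins Reg3b and Reg3g were among the brightest genes of the array, at 8.93 and 9.27 on the HFD+PP array, against 8.87 and 9.13 on the HFD array. Paneth cell products had no member past 2-fold, 0 of 23, with a median of 0.03, and among 24 goblet cell products Retnlb was the single one, beside −0.13 for Muc2 and −0.18 for Tff3.

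Cytokines and chemokines were mostly dim. Of 29 measured 6 were at least 2-fold higher, against 1.95% of all measured genes, and none was lower, with a median of 0.72. The other 5 besides Cxcl5 were Il17a at 1.62, Cxcl9 at 1.15, Ccl11 at 1.1, Ifng at 1.08 and Il22 at 1.04. With normexp none of the 6 was past 2-fold, Cxcl9 coming nearest at 0.99, and the median over the list was 0.33. In the main processing, 28 of 135 measured olfactory receptor genes were at least 2-fold higher and 6 lower. Of 44 measured vomeronasal receptor genes 5 were higher and 8 lower. Both families were counted after their values were seen. Cxcl9, a chemokine that interferon gamma induces, read 0.04 on the HFD+PP array, against −1.11 on the HFD array. Il22, the cytokine that drives epithelial defence genes, read −3.72, against −4.76, and the CD array was higher at −2.46. Ngp, a granule protein of neutrophils, was at least 5.92-fold higher as a bound (0.77 on the log2 scale with normexp), and with S100a8 and S100a9 made 3 of 18 mast cell and granulocyte markers higher. The interferon response list had 1 gene higher, Cxcl9, and 1 lower, Ido1 at −1.01 (−0.80 with normexp), of 54, with a median of 0.01, and the 15 genes of MHC class II presentation had none.

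Fat cell genes were higher with porphyran as a group. Of 19 measured members of the adipocyte list 11 were at least 2-fold higher, against 1.95% of all measured genes, and none was lower. The median was 1.06. Cfd, the adipokine adipsin, read 3.29 on the HFD+PP array, against 0.04 on the HFD array, a 9.51-fold rise. It read 1.82 on HFD+Ex and 4.42 on CD. Car3, a carbonic anhydrase abundant in fat, read 3.43, against 1.04, and Retn, the adipokine resistin, 1.38, against −0.94. Adipoq, which encodes adiponectin, read 1.88, against 0.18, and Plin1, the coat protein of fat droplets, −0.54, against −2.36. For all 5 the CD array was the highest of the 4. Lep, the leptin gene, read −2.56 with porphyran, −4.52 with extract, −3.96 on HFD and −4.70 on CD, so it did not share that order.

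The summed signal of the measured adipocyte genes, in multiples of the 75th percentile, was 105.9 on the HFD+PP array, 63.6 on HFD+Ex, 62.7 on HFD and 129.6 on CD. Adipoq and Plin1 were well above background on both arrays compared, and Ucp1, the brown fat uncoupler, was on neither. Smooth muscle genes also leaned upward, with 23 of 25 above 0, none past 2-fold and a median of 0.56, and a summed signal of 1207 with porphyran against 825 on HFD. Myh11, the smooth muscle myosin, read 4.27, against 3.63. Among 10 measured mesothelial genes Lrrn4 was higher, at 1.47, and the median was 0.69, while the summed signal, most of it Krt8 and Krt19 that epithelium also makes, was 434 with porphyran and 450 on HFD. With normexp Lrrn4 differed by 0.42. The share of muscle, fat and serosa in each pool was not measured, and its part in the falls of absorption genes and in the rise of adipocyte genes was not tested.

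Genes of fatty acid synthesis held 2 rises in 22, Scd1 and Thrsp, against 1.95% of all measured genes, with a median of 0.08. Scd1, which makes monounsaturated fatty acids, read 1.84 on the HFD+PP array, against 0.63 on the HFD array, with 0.58 on HFD+Ex and 3.65 on CD. Thrsp, a factor that promotes lipid synthesis, read 0.19, against −1.09, and is also in the adipocyte list. Fasn, the fatty acid synthase, differed by 0.46. None of the 29 genes of cholesterol synthesis was past 2-fold, with a median of 0.04.

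**Figure D3:**
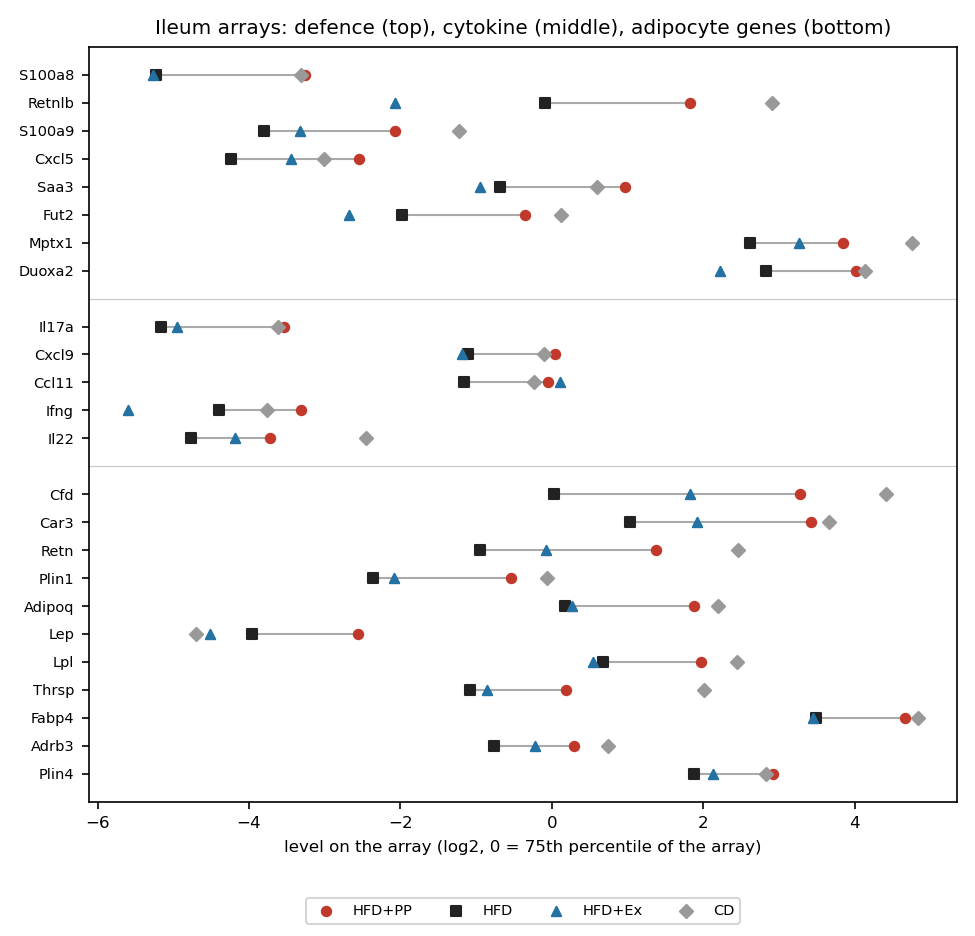
Levels on the 4 ileum arrays (log2, horizontal axis, 0 is the 75th percentile of the array) for defence genes in the top block, cytokines in the middle and adipocyte genes at the bottom, with a grey line joining HFD+PP (red circle) to HFD (black square). Retnlb, Fut2 and Duoxa2 read lowest on the HFD+Ex array (blue triangle), and the cytokines other than Cxcl9 and Ccl11 lie at the dim end of the axis.

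Cell cycle genes leaned upward together. All 40 measured genes of the cell cycle and DNA replication were above 0, against 7552 of 15981 measured genes, yet none reached 2-fold, and the median was 0.45. They ran from Pcna, the sliding clamp of DNA replication, at 0.01 to Mybl2 at 0.65, and Mki67, the usual marker of proliferation, read 3.87 with porphyran and 3.49 without. Lgr5, the marker of crypt stem cells, differed by −0.02. Cell cycle genes move together in tissue, so the 40 are not 40 separate observations. Among 24 tight junction and claudin genes none was past 2-fold, with a median of −0.14, and Ocln differed by −0.64, Cldn4 by −0.71, Tjp1 by −0.21 and Cldn2 by −0.08. Among 35 enteroendocrine genes Tac1, the precursor of substance P, was higher, at 2.95, against 1.66. Gcg differed by 0.03, Pyy by −0.07 and Cck by −0.05. Chac1, a glutathione-degrading enzyme of amino acid stress, read 2.04, against 0.72, the only one of 30 stress response genes past 2-fold.

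**Figure D4:**
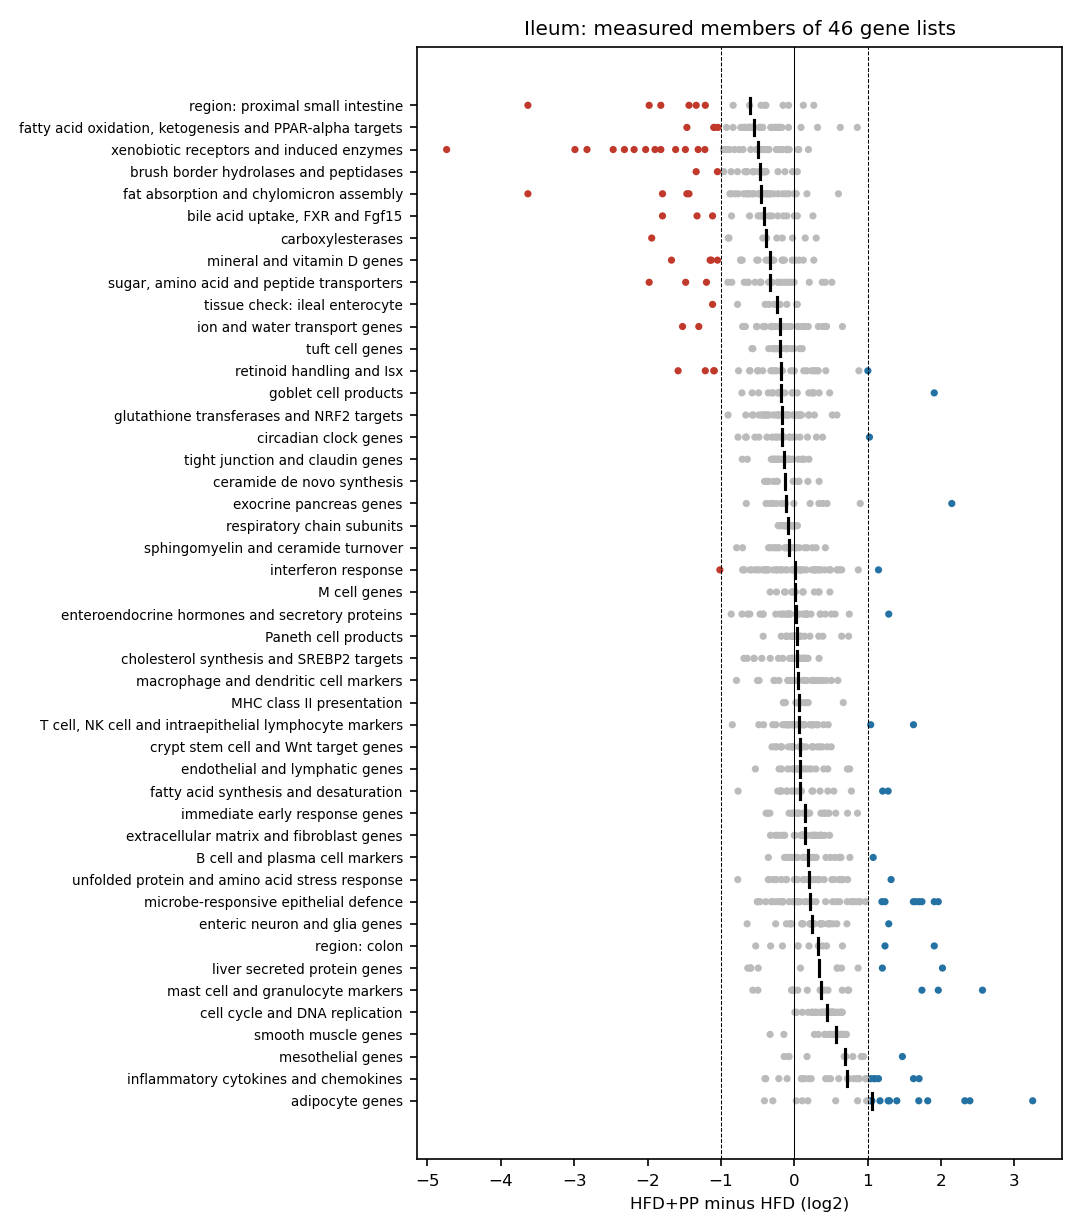
Difference between diets (HFD+PP minus HFD, log2, horizontal axis) for each measured member of the 46 gene lists, ordered by the median of the list (black bar), with members at least 2-fold higher in blue and at least 2-fold lower in red. The lists of the upper small intestine, fatty acid oxidation and xenobiotic genes lie at the top, with medians of −0.61, −0.55 and −0.50, and the adipocyte list at the bottom, with a median of 1.06.

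Most of the genes with the highest ratios were dim. Of the 15 highest genes measured on both arrays 13 were below the 75th percentile even with porphyran, and the HFD+PP array was the highest of the 4 for 14 of them, an order that choosing genes high with porphyran partly fixes. Htr1d, a serotonin receptor, read −1.42 with porphyran, −5.57 with extract, −5.04 on HFD and −6.47 on CD. Ric3, a chaperone of acetylcholine receptors, read −1.40, against −4.95, and Klrg2 −1.80, against −4.92. Six3, a transcription factor of the developing forebrain and eye, was at least 26.2-fold higher, and its antisense transcript Six3os1, which lies beside it, at least 21.1-fold higher. Abhd3, Atp6v0a4, Defb34 and Lhx3 had bounds of 25, 20.7, 19.5 and 16-fold. On the HFD+Ex, HFD and CD arrays all of these genes read lower than on the HFD+PP array.

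Exceptions among the 15 were Cfd and Plet1, which were above the 75th percentile. Plet1, a surface protein of some epithelial progenitors, read 0.93 on the HFD+PP array, against −1.98 on the HFD array, with −1.64 on HFD+Ex and 0.60 on CD. Mbl2, a mannose-binding lectin of innate immunity, read −0.11, against −3.03. On the lower side the largest bounds were at least 10.2-fold for Acot12, a thioesterase that cleaves acetyl-CoA, and for Pdzd7. Among markers of other organs, Alb and the pancreatic Cpa1 and Prss1 were not well above background on either array. The pancreatic Ctrb1 was dim on both, at −2.42 with porphyran and −2.75 on HFD, as was the liver gene Apoh, at −3.24 and −2.64. Hpx and the amylase gene Amy2a5 were at least 4.06-fold and 4.43-fold higher as bounds, but with normexp differed by 0.74 and 0.71.

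The same porphyran comparison in other tissues uses other arrays but RNA of the same mice. In colon, 119 of the 152 genes lower in ileum were measured. Of these 4 were at least 2-fold lower, 3.36%, against 1.11% of all genes measured in colon, and 2 were higher, 1.68%, against 1.74%. The 4 lower ones were Cyp2b10, Creb3l3, S100g and Mt2, which are 2.63% of the ileal set and 2.12% of the 189 genes lower in colon. Creb3l3 read 0.16 on the colon HFD+PP array, against 2.50 on the colon HFD array, and S100g 1.91, against 4.11. Of the 312 genes higher in ileum 195 were measured in colon and 16 of them were at least 2-fold higher, 8.21%, against 1.74% of all, and 8 were lower, 4.1%, against 1.11%. The 16 are 5.13% of the ileal set and 5.42% of the 295 genes higher in colon. They included Retnlb, Plet1, Cfd, Cxcl9 and Pla2g5, a secreted phospholipase, with colon differences of 2.67, 1.95, 1.42, 1.73 and 1.66. Whether ileum and colon differed in their response was not tested.

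The mesenteric fat HFD array was on slide 1 and its HFD+PP array on slide 2, so diet and slide cannot be told apart there. In ileum, colon, liver and brown fat the 2 arrays shared a slide. In mesenteric fat 15 of the 102 measured genes of the lower set were lower, 14.7%, against 4.2% of all genes measured there. In the other direction 6 were higher, 5.88%, against 4.69%. Of 179 genes of the higher set 25 were higher there, 14%, against 4.69%, and 19 were lower, 10.6%, against 4.2%. In brown fat 8 of 65 genes of the lower set were lower, 12.3%, against 2.18%, and 1 was higher, 1.54%, against 1.52%. There 21 of 162 genes of the higher set were higher, 13.0%, against 1.52%, while 20 were lower, 12.3%, against 2.18%. In liver 1 of 99 genes of the lower set was lower, 1.01%, against 1.55% of all, and 2 were higher, 2.02%, against 0.579%. Of 138 genes of the higher set 1 was higher in liver, 0.725%, against 0.579%, and 9 were lower, 6.52%, against 1.55%. In each of the 4 tissues the higher set thus held genes past 2-fold in the other direction at more than the share among all genes.

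The leading losses of the ileum had mixed values elsewhere. Cyp2c55 differed by −0.62 in colon and −0.45 in liver. Fabp1 differed by −0.03 in liver, where it read 9.57 on the HFD+PP array and 9.60 on the HFD array, and by −4.63 in brown fat, where it read −2.93, against 1.70. Cyp3a11 differed by 0.07 in colon and −0.69 in liver. Reg3b and Reg3g, near equal in ileum, differed by 5.04 and 3.28 in colon. Among adipocyte genes, Cfd, Adipoq and Retn differed by 0.93, 0.17 and 0.73 in mesenteric fat.

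**Figure D5:**
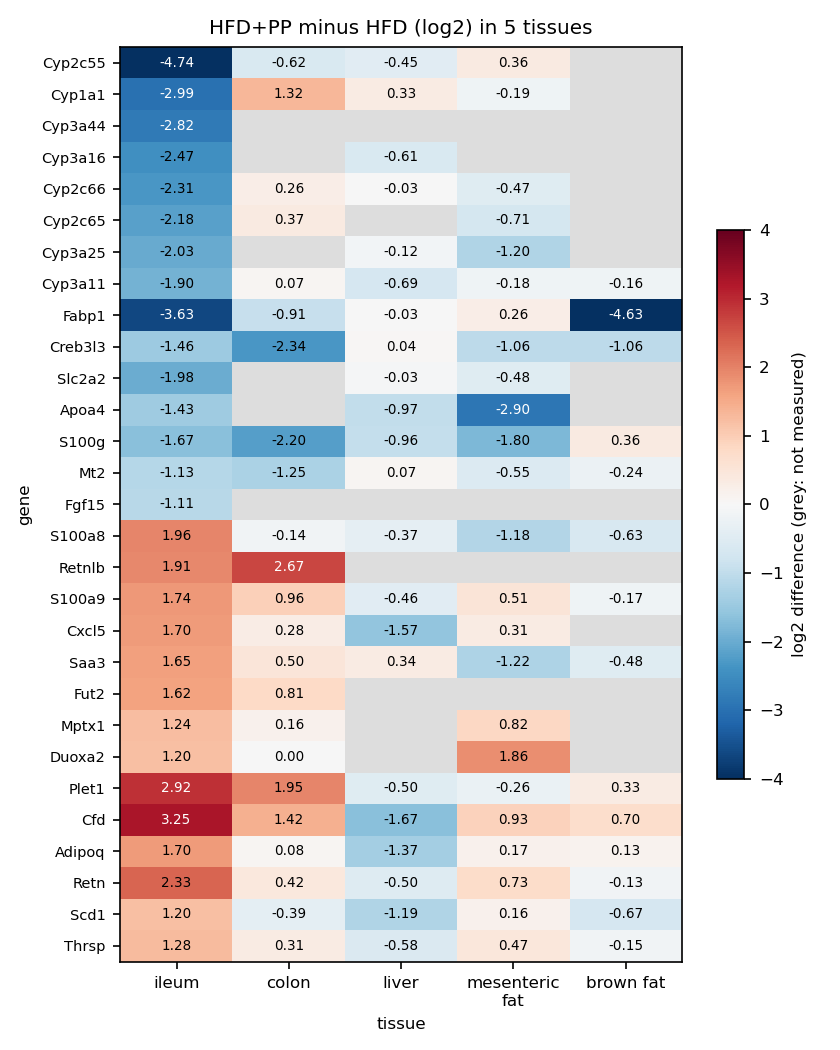
Difference between diets (HFD+PP minus HFD, log2, printed in each cell and coloured from blue for lower to red for higher) for genes named in the text, by tissue, bounds included and grey where the gene was not well above background on either array. The 8 cytochromes plotted, at −4.74 to −1.90 in ileum, lie within 1 of 0 in the other tissues where they were measured, except Cyp1a1 at 1.32 in colon and Cyp3a25 at −1.20 in mesenteric fat; Cyp2b10, not plotted, was at −1.82 in ileum, at least 7.70-fold lower in colon and at 2.43 in brown fat.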

How the data were processed

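RNA of 5 tissues and 4 diets was hybridised to 20 one-colour Agilent arrays, 1 pool of 7 mice per array. Per the file headers, the arrays were read with Agilent Feature Extraction 11.5.1.1, and the deposited scanner files hold each spot's background-subtracted intensity on a linear scale, not scaled between arrays. The series matrix deposited by the authors holds the same intensity times 1 factor per array (log2 factors of 1.42 for the ileum HFD+PP and 1.35 for the ileum HFD array); its column medians were 87.1 with porphyran and 80.6 on HFD, its scale is linear, its values are not centred, and what the factor was set to stays unknown. No count or sequencing depth exists for arrays, and the number of arrays limits the precision.

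The log2 of the processed intensity as deposited, minus the 75th percentile of the array over spots that are not controls, was computed here. Outlier-flagged spots were dropped and spots of a probe averaged. Of 55681 probes, 28026 matched by accession a symbol of RefSeq assembly GRCm38.p6, giving 21154 genes, with the probe of highest mean over the 20 arrays standing for the gene. A probe was well above background when at least 50% of its spots were flagged so. A gene was measured when it stood well above background with either diet; the floors for bounds were −4.97 with porphyran and −5.48 on HFD, and bounds under 1-fold, 243 of them, were set to 0.

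The text draws on the 15 genes highest and the 15 lowest where both arrays measured them, up to 6 bounds per direction, up to 5 members per list, and a set of genes whatever their value; others were chosen after their values were seen, and some genes that the rule names are left out. Members, lists and rules were chosen with earlier results of these data known. Of 1339 list entries 44 matched no gene, and entries of a list that matched the same gene were counted once. The normexp alternative (limma 3.58.1, R 4.3.3, offset 50) used the median spot signal, as the files hold no mean signal. The difference, floor and count steps were tested on simulated data. Calculations used Python 3.11.15 with numpy 2.4.6 and pandas 2.3.3.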

Additional observations from a re-analysis of the deposited data

Results flagged for a closer look

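A few genes at least 2-fold different in ileum were at least 2-fold different the other way in another tissue of the same mice, on both arrays of each tissue; with 1 array per diet the difference between tissues was not tested. Cfd differed by 3.25 in ileum and −1.67 in liver, and Scd1 by 1.20 in ileum and −1.19 in liver. In mesenteric fat 5 genes went against the ileum: Cux2, a neuronal homeobox gene, with 2.74 in ileum and −1.26 in fat, S100a8 with 1.96 and −1.18, Saa3 with 1.65 and −1.22, Tac1 with 1.29 and −1.28, and Nxpe2 with −2.08 and 1.49. Cyp2b10 differed by −1.82 in ileum and 2.43 in brown fat. The mesenteric fat HFD and HFD+PP arrays were on different slides, so diet and slide cannot be told apart in that tissue.

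Probes with no gene symbol were left out of every count above. Of 12877 such probes that stood well above background with either diet, 602 were at least 2-fold higher with porphyran and 197 at least 2-fold lower. Of the 15981 measured genes 312 were higher and 152 lower, so these probes passed 2-fold at a larger share in both directions. The shares are not like for like. Each probe without a symbol was counted, while a gene was read by its probe of highest mean.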

How the results depend on the processing

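With 1 array per diet, the counts depend on how dim genes are treated. Against 312 higher and 152 lower genes, normexp gave 67 and 69, a filter that asked for signal well above background with both diets 142 and 114, no filter 677 and 530, a limit of 1.5-fold 788 and 658, a limit of 3-fold 149 and 46, and genes above the 75th percentile, added after the data were seen, 30 and 55. The counts stayed within 1.5 times under quantile normalization (279 and 151), scaling to bright probes (332 and 138), the authors' values (346 and 131), either other choice of probe, and without genes typical of other tissues (294 and 152). Of 94 named genes past 2-fold, 71 remained so with normexp and 90 with quantile normalization, and none reversed in the 8 alternatives run on them. Most of the 8 could hardly reverse a gene. The other filters reuse the same values, and the authors' values and the scaling to bright probes shift each array by a constant. Another choice of probe matters only for genes with several probes. With normexp the median of the upper small intestine list was −0.46 and that of the adipocyte list 0.79. The median of the exocrine pancreas list, −0.12, was 0.22 with no filter. Under quantile normalization Cubn, Bhlhe41, Il22 and Stra6 were short of 2-fold. No paired analysis was possible because each group is 1 array and the labels give no replicate numbers.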

Other observations

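Some bright genes past 2-fold belong to none of the lists described, and all named here were chosen after their values were seen. Among genes of glucose and nitrogen metabolism, G6pc, the last enzyme of glucose production, read −0.69 on the HFD+PP array, against 0.98 on the HFD array, and Fbp1, an earlier enzyme of the same pathway, 2.43, against 3.90. Arg2, the mitochondrial arginase, read 0.81, against 2.09. Leap2, a peptide that blocks the ghrelin receptor, read 0.34, against 1.53. Abcb4, a phospholipid exporter related to Abcb1a, fell by 1.63, and Abcd3, a peroxisomal fatty acid transporter, read 4.74, against 5.74.

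On the higher side, B3galt5, which extends glycans of the gut surface, read 1.42 with porphyran, against −0.03 on HFD, with −1.68 on HFD+Ex and 1.61 on CD, an order over the arrays like that of Fut2. Pla2g5 read 2.64, against 0.98, Lrg1, an acute phase glycoprotein, 2.14, against 0.75, and Bhmt, which methylates homocysteine from betaine, 1.83, against −0.34. Csnk2b, the regulatory subunit of casein kinase 2, read 3.86 with porphyran, while HFD+Ex at 5.07, HFD at 5.19 and CD at 5.13 were close together.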
